A study of Mus musculus with 2 samples.

Results

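Chromatin modifiers and remodellers were described in B cells of NOD mice, which develop autoimmune diabetes spontaneously, either carrying or lacking a human AIRE transgene driven by an MHC class II promoter. The genes were fixed by name, 52 in 7 classes: acetyltransferases, deacetylases, histone methyltransferases with Polycomb proteins, histone demethylases, enzymes of DNA methylation and hydroxymethylation, nucleosome remodellers, and a class of readers, histone chaperones and coregulators. Of the 52, 50 had at least 1 named probe set, which is a group of short probes on the array that together read a transcript, and these genes had 136 probe sets of the 45037 on the array. RNA came from B220-positive cells negative for Thy1 and CD11c, taken from mice 8 weeks old. Each of the 2 groups was 1 Affymetrix array of RNA from 2 mice, the transgenic group carrying the AIRE transgene and the non-transgenic group not, both on the NOD background. With 1 array per group there are no replicates, so every difference describes these 2 arrays and carries no test, p-value or standard error. The promoter is active in antigen-presenting cells in general, so other cell types of the same mice could also carry the product.

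In the thymus, AIRE lets epithelial cells transcribe genes of many other tissues. It binds the unmodified tail of histone H3 through a PHD finger and works through partners that acetylate, deacetylate, remodel or read chromatin. Acetyltransferases add acetyl groups that loosen nucleosomes and deacetylases remove them. Polycomb and other methyltransferases write repressive or activating methyl marks that demethylases erase, and remodellers move or evict nucleosomes with ATP. In B cells these enzymes take part in commitment, activation and the germinal centre reaction.

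Intensities are the deposited linear values after the medians of the arrays were aligned. Each ratio is on the log2 scale, the transgenic array over the non-transgenic one, and values below a floor of 25.1 were raised to it. The probe set of highest mean level stood for each gene, called its representing probe set, and the gene was kept if the higher of its values reached the filter of 98.8, the pooled median. Of 18193 named genes 10778 passed, and so did 49 of the 52 members. In all 49 both values of the representing probe set lay above the filter, so none passed through 1 array alone. The median log2 ratio of all genes above the filter, called the array-wide median here, was 0.19. Because another scaling can shift every ratio together (0.01 without the alignment, 0.05 after quantile normalization, 0.04 after loess), class medians are read against it. For single genes and probe sets, higher, lower and level compare the intensities on the arrays as given, that is against a log2 ratio of 0. Levels of different genes are not compared, because each probe set has its own affinity.

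The members as a whole lay close to the array-wide median. Their median log2 ratio was 0.23 against 0.19 for all genes, and 26 of 49 lay above the array-wide median and 23 below. That reference includes 2845 genes with mean levels under 300, where no member lay, with a median of 0.06. With the filter at the 75th percentile, 23 of 47 members lay above the array-wide median of that setting, 0.24. By the representing probe set 2 members, Kdm6b and Suz12, passed 2-fold in the higher direction on the transgenic array, where 4.43% of all genes did. In the lower direction 1 member, Kdm2a, passed 2-fold, where 3.19% of all genes did. Among genes with both values above the filter, as in all 49 members, the shares were 2.53% higher and 1.43% lower. The member counts are near the background and are no result about the group. In such bulk samples fewer cells of a type and less RNA per cell cannot be told apart. At 1.5-fold, 9 members were higher (Crebbp, Dnmt3b, Ep300, Ezh2, Hdac2, Hipk2, Kat2b, Kdm6b and Suz12) against 17.4% of all genes, and 2 were lower (Hdac7 and Kdm2a) against 8.42%. Of the 121 member probe sets above the filter, 4 were 2-fold higher and 5 were 2-fold lower, where 4.52% and 4.02% of all named probe sets were.

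**Figure D1:**
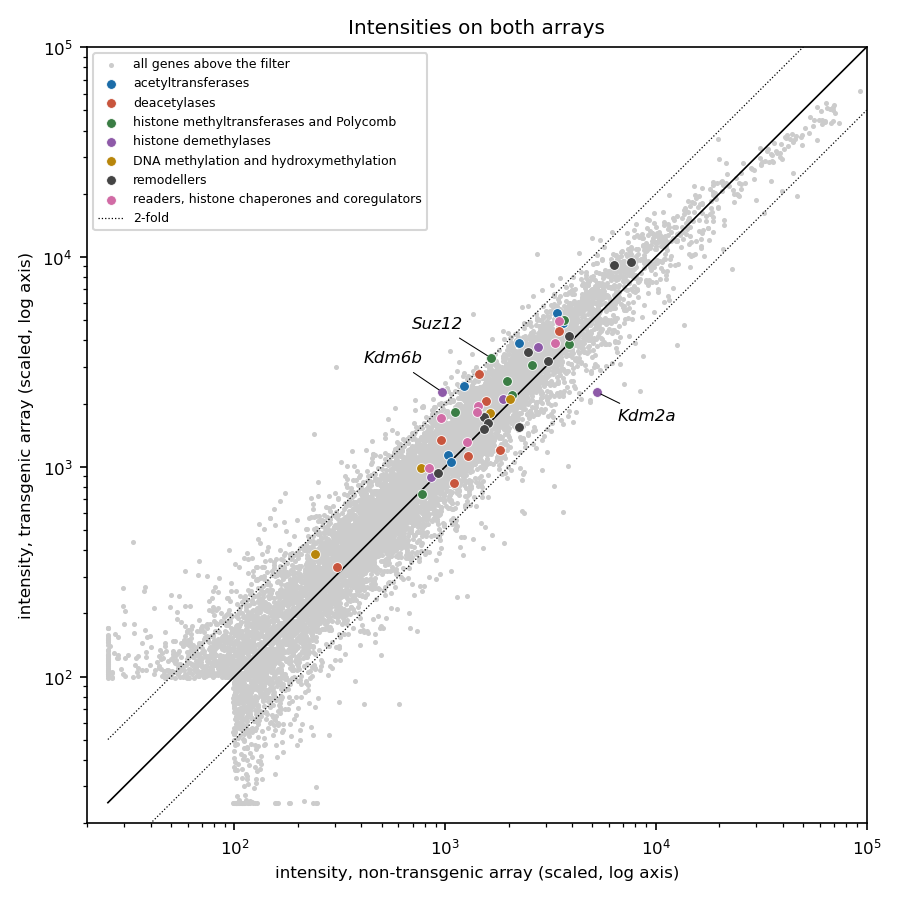
Intensity of each gene above the filter on the transgenic array (vertical, log axis) against the non-transgenic array (horizontal, log axis), with members coloured by class and all other genes in grey, each point 1 representing probe set and values under 25.1 drawn at 25.1. The members lie along the grey cloud between the dotted 2-fold lines, except Kdm6b (2267 against 971), Suz12 (3303 against 1649, on the line) and Kdm2a (2267 against 5257).

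The promoters of 4 members are shown, chosen after their values were seen: Crebbp and Ep300, paralogs with like ratios, Suz12, at the 2-fold line, and Hdac5, a member with a lower value. They do not cover the range of ratios. Each is the window of 250 bases before the gene's start, 5′ to 3′ on the gene's strand, from RefSeq on build GRCm38.p6. Capitals mark matches, on either strand, to 4 motifs: the GC box GGGCGG, the CCAAT box CCAAT, the ETS core CCGGAAG and the TATA box TATAAA.
Crebbp, chr16:4213405-4213654, - strand: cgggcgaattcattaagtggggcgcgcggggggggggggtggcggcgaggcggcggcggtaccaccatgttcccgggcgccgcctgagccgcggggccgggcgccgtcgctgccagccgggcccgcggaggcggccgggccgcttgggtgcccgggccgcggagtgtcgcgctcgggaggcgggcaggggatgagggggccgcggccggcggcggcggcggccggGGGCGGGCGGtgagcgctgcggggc
Ep300, chr15:81585964-81586213, + strand: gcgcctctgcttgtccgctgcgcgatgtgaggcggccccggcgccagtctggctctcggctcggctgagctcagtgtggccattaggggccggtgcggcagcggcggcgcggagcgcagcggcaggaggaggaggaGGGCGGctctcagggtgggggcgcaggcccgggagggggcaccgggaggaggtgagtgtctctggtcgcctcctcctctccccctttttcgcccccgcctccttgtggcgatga
Suz12, chr11:79992856-79993105, + strand: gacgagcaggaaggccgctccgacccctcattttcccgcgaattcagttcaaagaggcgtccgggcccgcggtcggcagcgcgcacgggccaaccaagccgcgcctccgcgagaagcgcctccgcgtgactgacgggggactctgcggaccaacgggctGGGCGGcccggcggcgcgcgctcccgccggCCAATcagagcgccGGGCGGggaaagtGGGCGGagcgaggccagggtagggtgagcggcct
Hdac5, chr11:102230173-102230422, - strand: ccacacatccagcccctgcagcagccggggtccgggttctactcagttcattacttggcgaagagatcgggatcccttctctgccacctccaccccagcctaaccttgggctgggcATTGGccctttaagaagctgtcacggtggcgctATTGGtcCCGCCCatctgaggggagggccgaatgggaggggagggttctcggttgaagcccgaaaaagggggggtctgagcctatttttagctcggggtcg

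Crebbp held 44 CpG dinucleotides and 2 overlapping GC boxes, Ep300 25 CpG and 1 GC box, and Suz12 37 CpG, 3 GC boxes and 1 CCAAT box. Hdac5 held 12 CpG, 1 GC box and 2 CCAAT boxes. Whether these numbers go with the ratio was not tested, and 4 genes chosen after their values were seen cannot show it. RefSeq windows were matched for 44 of the 52 members, 66 windows in all, some of them overlapping. Their median GC content was 67.2% and their median CpG number 21, against 52.4% and 6 over all 32851 windows, which include those of non-coding genes. CpG dinucleotides reached over 0.6 of the number that base composition gives in 78.8% of the member windows and 34.0% of all windows. A GC box was found in 69.7% of member windows and 32.7% of all, an ETS core in 13.6% and 6.91%, and a CCAAT box in 30.3% and 33.8%. The TATA box was found in 0 member windows and 12.4% of all. These are matches of letters and are no evidence of binding, and the 0 says only that these letters are not in these windows.

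Acetyltransferases were the class furthest above the array-wide median. All 6 members were measured, 4 lay above it, and their median log2 ratio was 0.55, which is 0.36 above that of all genes. Crebbp and Ep300 encode CBP and p300, paralogous coactivators that acetylate histones at enhancers. Crebbp stood at an intensity of 5411 with the transgene against 3386 without it (log2 ratio 0.68), and values below are given in that order. Its other 2 probe sets above the filter were at 1452 against 887 (0.71) and 1073 against 820.3 (0.39), so that all 3 were higher. Ep300 had 1 probe set, at 3889 against 2236 (0.80).
Kat2b, or PCAF, an acetyltransferase of the SAGA type, was just short of 2-fold at 2433 against 1229 (0.98). Its other probe sets were higher too, at 312 against 232 and 175 against 110.1, but without probe sets named as shared between transcripts it was at 0.43. Its paralog Kat2a, the GCN5 enzyme, differed less, at 1142 against 1034 (0.14), and 1 of its other probe sets was lower at 607 against 897 (-0.56). Kat6a, the MYST-family enzyme MOZ, was at 4857 against 3619 (0.42). Kat5, the TIP60 enzyme of the DNA damage response, was level at 1049.5 against 1061 (-0.02), which is 0.20 below the array-wide median. A second probe set of Kat5 gave 0.16. Acetyltransferases had the highest class median in all 12 settings tried, 0.26 to 0.52 above the array-wide median under the 11 alternatives. These settings reuse the same 2 arrays and are no independent support.

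**Figure D2:**
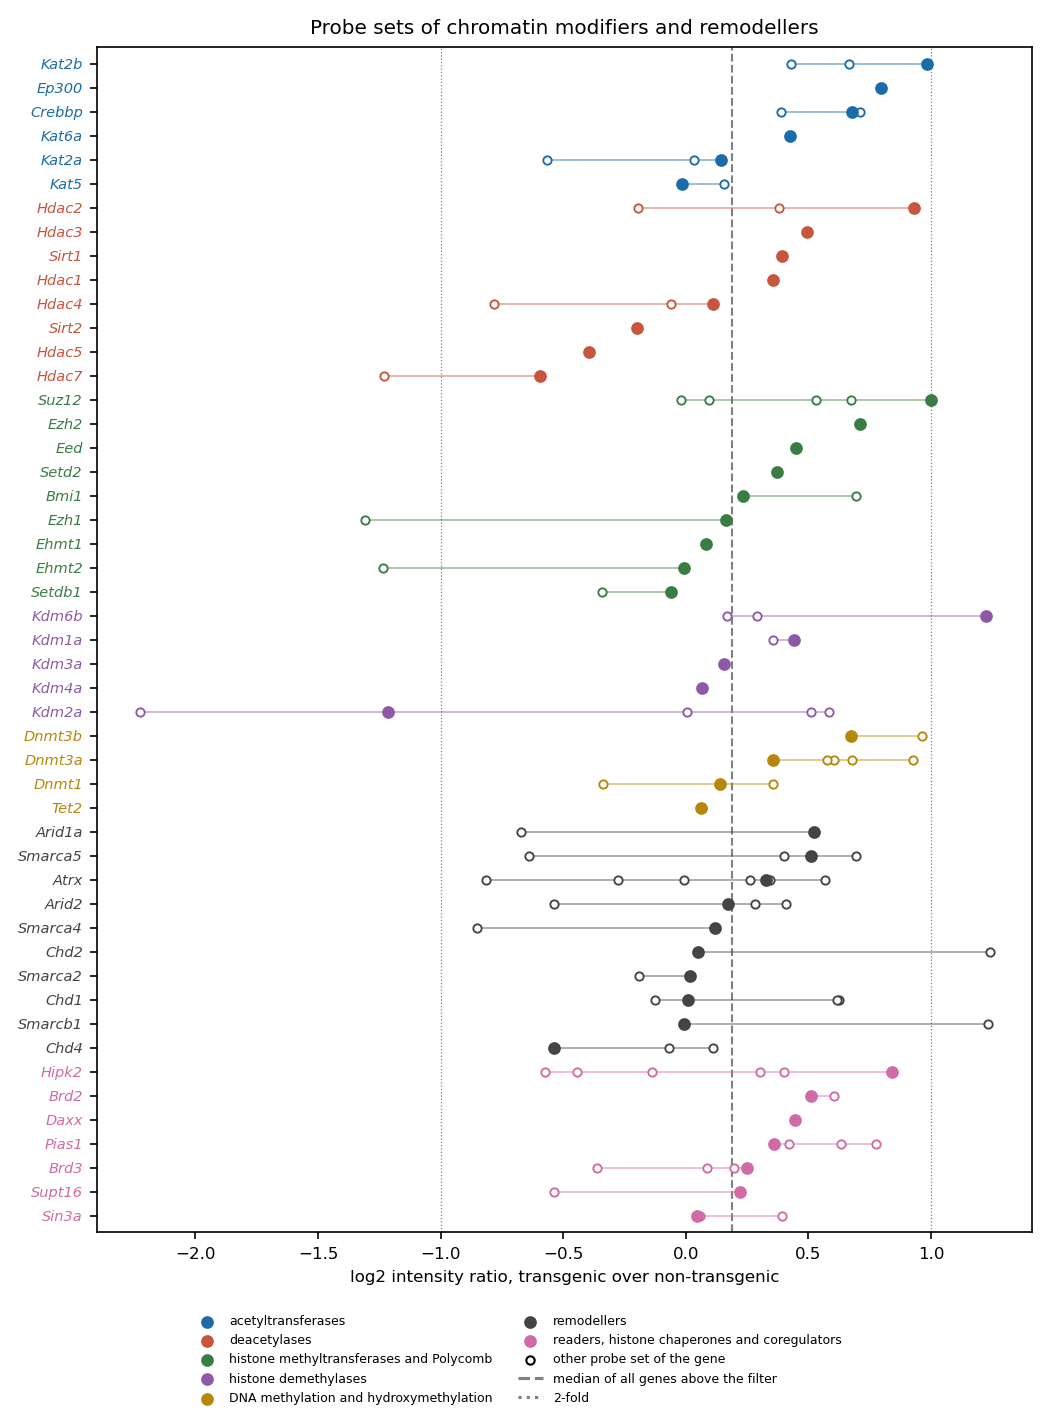
Log2 intensity ratio, transgenic over non-transgenic (horizontal), of every probe set above the filter for the 49 members (vertical, grouped and coloured by class), with the representing probe set filled, others open, and a line joining probe sets of a gene. The 3 open and filled points of Crebbp all lie right of the dashed array-wide median at 0.19, while those of Kdm2a run from -2.23 to 0.58.

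Deacetylases were split, with 4 of 8 above the array-wide median and a median log2 ratio of 0.23. The class I enzymes Hdac1, Hdac2 and Hdac3, nuclear catalytic subunits of corepressor complexes, were all above it. Hdac1 was at 4445 against 3476 (0.35) and Hdac3, the partner of the NCoR corepressors, at 1348 against 955 (0.50). Hdac2 was at 2769 against 1452 (0.93), but its other probe sets were at 0.38 and -0.20. The class IIa enzymes Hdac4, Hdac5 and Hdac7, which shuttle between nucleus and cytoplasm upon signalling, were all below it.
Hdac7, which represses genes of other lineages in B cell progenitors, was at 1199.5 against 1813 (-0.60). Its other probe set was lower still, at 400.2 against 938 (-1.23, 2.34-fold), so that both of its probe sets were lower. Hdac5 was at 835 against 1096 (-0.39), and Hdac4 at 332 against 308 (0.11) and further probe sets gave -0.06 and -0.78. The last of these passed the filter through the non-transgenic array alone, so that it had to be lower. Of the NAD-dependent sirtuins, Sirt1, which deacetylates AIRE itself, was at 2054 against 1563 (0.39), and Sirt2, mostly cytoplasmic, at 1121 against 1286 (-0.20). The split by class was noticed after the values were seen.

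Among histone methyltransferases and Polycomb proteins, 9 of 10 were measured, 5 lay above the array-wide median, and the median log2 ratio was 0.23. Suz12, Ezh2 and Eed, subunits of Polycomb repressive complex 2, which methylates histone H3 to silence genes, each lay above the array-wide median by the representing probe set, a grouping made after the values were seen that leaves out Ezh1, the alternative catalytic subunit. Suz12, the scaffold subunit, was at 3303 against 1649 (2.00-fold). Its other probe sets were at 0.67, 0.53, 0.09 and -0.02, the last of these dim at 169.8 against 172. The 2-fold call of Suz12 sat on the threshold and was lost under 6 of 11 alternatives (0.46 to 0.84).
Ezh2, the catalytic subunit that dividing and germinal centre B cells express, was at 1816 against 1109 (0.71), and Eed, which reads the mark, at 5009 against 3666 (0.45). The 18 proliferation genes set beside it went the other way: 14 of the 15 with both values above the filter lay below the array-wide median, with a median log2 ratio of -0.22 and summed intensities of 22288 (transgenic) and 22824 (non-transgenic). Whether dividing cells have a part in the level of Ezh2 was not tested. Ezh1, the paralog of resting cells, was at 1736 against 1551 (0.16), yet a second probe set above the filter was lower at 152 against 377 (-1.31). Bmi1, of Polycomb repressive complex 1, was at 3042 against 2587 (0.23), while a second probe set gave 2279 against 1409.8 (0.69).
Setd2, which methylates histone H3 along transcribed genes, was at 2553 against 1972 (0.37). The enzymes that methylate lysine 9 of histone H3, a repressive mark, lay below the array-wide median. Setdb1 was at 746 against 778 (-0.06), Ehmt1 at 2199 against 2076 (0.08) and Ehmt2 at 3848 against 3873 (-0.01). A second probe set of Setdb1 above the filter gave -0.34. The other probe set of Ehmt2 was at 192 against 451 (-1.24, 2.36-fold lower), far from the level value of the representing one. Suv39h1, of the same function, had no named probe set here and was not analysed.

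Histone demethylases held 2 of the 3 members that passed 2-fold by the representing probe set, in opposite directions, and their class median was 0.16. Over all genes 4.43% were 2-fold higher and 3.19% lower, and 1 gene each way among 5 is no result about the class. Kdm6b, or JMJD3, removes the Polycomb mark and is induced by inflammatory signals. It was at 2267 against 971 (1.22, 2.34-fold higher), but its other probe sets were nearly level at 1255 against 1117 (0.17) and 912 against 745 (0.29). The name of the one at 0.17 marks cross-hybridising sequence. The mean of the Kdm6b probe sets was 0.56, short of 2-fold.
Kdm2a, a CpG-island-binding demethylase, was at 2267 against 5257 (-1.21, 2.32-fold lower) by its representing probe set. Of its other 4 probe sets above the filter, 2 were higher, at 1557 against 1039.6 (0.58) and 955 against 671 (0.51). Another was level at 190.0 against 189, and the last was dim, at 7.22 against 117 with the transgenic value under the floor, at least 4.68-fold lower. This last one passed the filter through the non-transgenic array alone, so that it had to be lower. With the probe set of median ratio Kdm2a was at 0.01, so its direction rests on which probe set is read. Kdm1a, or LSD1, a demethylase of corepressor complexes, was at 3731 against 2749 (0.44) while a second probe set gave 0.35. Kdm3a was at 2103 against 1888 (0.16) and Kdm4a at 894 against 853 (0.07).

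Of the enzymes of DNA methylation and hydroxymethylation, 4 of 5 were measured and their median log2 ratio was 0.25. The de novo methyltransferases Dnmt3a and Dnmt3b were higher in every probe set above the filter. The representing probe set of Dnmt3a was at 988 against 772 (0.36), and its other 4 ranged from 0.58 to 0.93. Dnmt3b was dimmer, at 383 against 239.9 (0.67) and 137 against 70.3 (0.96). The second of these passed the filter through the transgenic array alone, so that it had to be higher there. Dnmt1, which copies methylation at replication, had probe sets on both sides of the array-wide median, at 1799 against 1633 (0.14), 1411 against 1782 (-0.34) and 833 against 651 (0.36). The names of the first and last mark cross-hybridising sequence, and without probe sets named in this way Dnmt1 was at -0.34.
Tet2, which oxidises methylated cytosine and restrains B cell expansion, was nearly level in both probe sets, at 2111 against 2023 (0.06) and 1003 against 958 (0.07). Each of these is 0.12 below the array-wide median. Tet3, the paralog of Tet2, lay under the floor on both arrays and has no ratio.

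Remodellers were the class furthest below the array-wide median, with 7 of 10 below it and a median log2 ratio of 0.08. Their class median was the lowest of the 7 in all 12 settings, on the same 2 arrays, from 0.15 below to 0.06 above the array-wide median. Smarca4, or BRG1, the ATPase of SWI/SNF complexes, was at 4182 against 3849 (0.12), although a second probe set was lower at 892 against 1609 (-0.85). Smarca2, the alternative ATPase BRM, was at 1609 against 1591 (0.02), and a second probe set gave -0.19. Smarcb1, a core SWI/SNF subunit, was at 1515 against 1522 (-0.01), while a probe set whose name marks cross-hybridising sequence was at 660.4 against 281 (1.23).
Arid1a, the large DNA-binding subunit, was bright in both of its probe sets and these disagreed. The representing one was at 9132 against 6354 (0.52) and the other at 5543 against 8825 (-0.67). Arid2, of the polybromo form of the complex, was at 1729 against 1534 (0.17), only 0.01 below the array-wide median. Its other probe sets gave 0.28, 0.41 and -0.54. The last of these passed the filter through the non-transgenic array alone, so that it had to be lower. Smarca5, the ATPase of ISWI complexes, was at 3509 against 2459 (0.51), with others at 0.69, 0.40 and -0.64.
Chd4, the ATPase of the NuRD corepressor, was the lowest remodeller at 1540.5 against 2238 (-0.54), and further probe sets gave 0.11 and -0.07. Chd1, which binds methylated histone H3 at active promoters, was at 930.0 against 923 (0.01), with others at 0.62, -0.13 and 0.62. Chd2 was at 3174 against 3066 (0.05), and its other probe set was 2.36-fold higher at 399 against 169 (1.24). Atrx, which places histone variant H3.3 in repeats, was at 9502 against 7580.0 (0.33), and its 7 probe sets ran from -0.81 to 0.57.

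Among readers, histone chaperones and coregulators 7 of 8 were measured and 6 lay above the array-wide median, with a median log2 ratio of 0.36. The bromodomain protein Brd2, which binds acetylated histones, was at 4958 against 3481 (0.51) while a second probe set gave 0.61, and its relative Brd3 at 992 against 834 (0.25), where further probe sets of Brd3 gave 0.09, 0.20 and -0.36. Daxx, the H3.3 chaperone that partners Atrx, was at 1950.0 against 1433 (0.44). Supt16, a subunit of the FACT chaperone that moves with RNA polymerase, was at 3878 against 3326 (0.22), while a second probe set read 395 against 574 (-0.54).
Pias1, a SUMO ligase that restrains STAT signalling, was higher in all 4 probe sets, at 1817 against 1417 (0.36), 835 against 623 (0.42), 763 against 446 (0.77) and 542 against 349 (0.63). Hipk2, a nuclear kinase that phosphorylates coregulators, was at 1701 against 951 (0.84), but its 6 probe sets above the filter ran from -0.57 to 0.84 and their mean was 0.06. The name of the lowest one marks cross-hybridising sequence, and the next lowest was at -0.44. Sin3a, the scaffold of a deacetylase complex, was at 1309.8 against 1270.4 (0.04), with others at 0.06 and 0.39. Ncor1, a nuclear receptor corepressor, had no named probe set here and was not analysed.

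**Figure D3:**
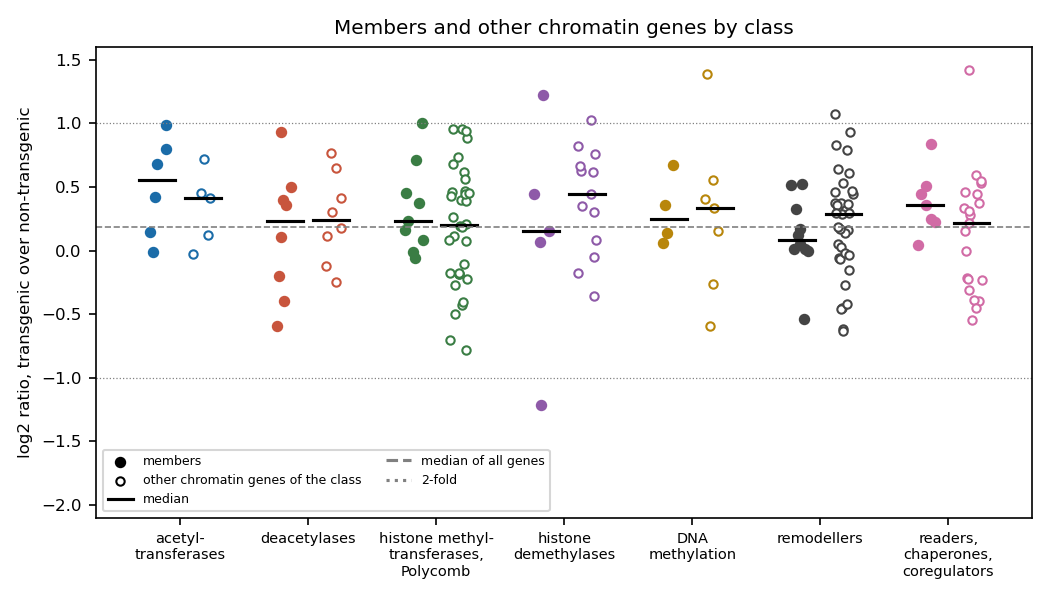
Log2 intensity ratio of the members (filled) and of other chromatin genes of the same class (open) by class, each point 1 gene by its representing probe set, with bars at the medians, a dashed line at the array-wide median of 0.19 and dotted lines at 2-fold; horizontal scatter within a column is for legibility. The acetyltransferase medians are 0.55 for members and 0.42 for the others, and the remodeller medians 0.08 and 0.29.

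Across these classes, 8 members were listed here as known to bind or modify AIRE: Crebbp, Sirt1, Daxx, Pias1, Hipk2, Supt16, Chd4 and Smarca4. The list may leave out other members. None of the 8 was 2-fold apart by the representing probe set, where 4.43% of all genes were higher and 3.19% lower. With so few genes that is near the background. Of the 8, 6 lay above the array-wide median, and the median log2 ratio of the 8 was 0.38, or 0.19 above that of all genes. Under the 11 alternatives this distance was 0.09 to 0.35. Chd4, at -0.54, and Smarca4, at 0.12, were the members of this list below the array-wide median. Supt16 was only 0.03 above it, and lay below it after quantile normalization (-0.03) and loess (-0.02).

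Another 134 chromatin genes of the same 7 classes, listed with earlier results of these data known, served as a wider view of the pathway. Of them 128 had a named probe set and 123 passed the filter, with a median log2 ratio of 0.29, and 68 lay above the array-wide median. At least 2-fold higher were 4, and 0 were 2-fold lower, where 4.43% and 3.19% of all genes were. Kdm2b, a paralog of Kdm2a, was at 4160 against 2046 (1.02), while a second probe set gave 2482 against 1826 (0.44). Tet1, an enzyme of the Tet family, was dim at 332 against 126 (1.39), and 1 other probe set above the filter, at 123 with the non-transgenic value under the floor, was at least 4.92-fold higher. That other probe set passed through the transgenic array alone, so that it had to be higher.
Smarcd2, a SWI/SNF subunit, was at 13071 against 6202 (1.08), but its other probe sets were at -0.04 and 0.23. Cbx3, of the heterochromatin protein family, was dim at 122 against 45.8 (1.42) and passed the filter through the transgenic array alone. Other acetyltransferases had a median of 0.42 over 5 genes, other demethylases 0.44 over 13 and other remodellers 0.29 over 35. Remodellers, the lowest class among the members, were not the lowest among these genes, where the methyltransferases and Polycomb proteins had 0.20 over 34.

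**Figure D4:**
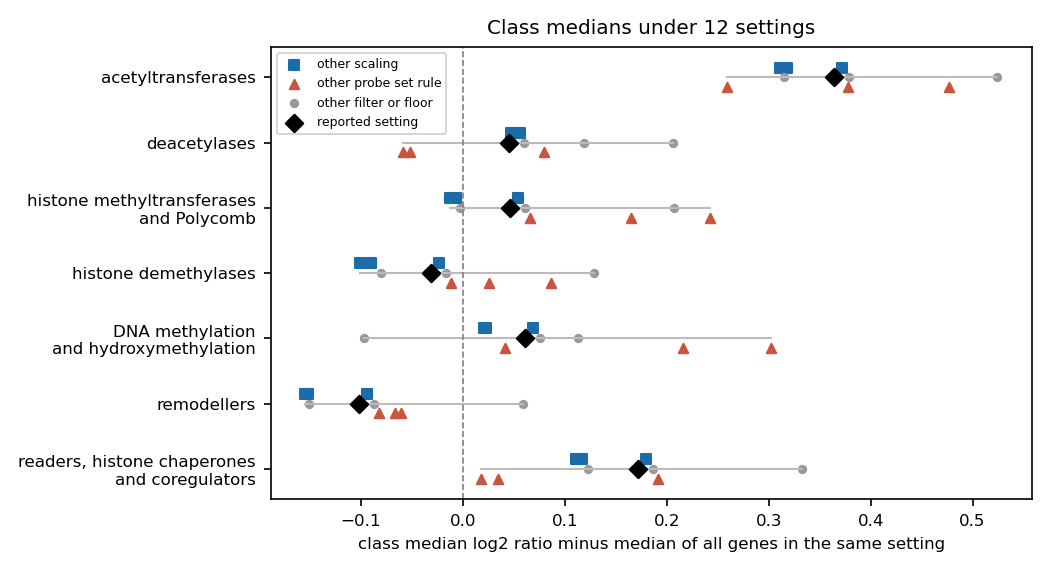
Median log2 ratio of each class minus the median of all genes in the same setting (horizontal) for the 7 classes, with the reported setting as a diamond, other scalings as squares, other probe set rules as triangles and other filters or floors as circles. Acetyltransferases stay between 0.26 and 0.52 and remodellers between -0.15 and 0.06, and in each setting the other 5 classes lie between them.

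Probe sets of the same gene disagreed often. Of 35 members with at least 2 probe sets above the filter, 16 (45.7%) had them on both sides of the array-wide median, against 53.7% of 5172 such genes on the array. The highest and lowest ratio lay more than 1 apart on the log2 scale in 12 members (34.3%) and in 22.3% of these genes, and the median distance was 0.71 in members and 0.58 in all. Members had 107 such probe sets, 3.06 per gene, against 2.77 per gene in all, and a distance between extremes grows with their number. The SD between probe sets of a gene, pooled over all genes with at least 2, was 0.51, a measure of how far a single probe set can stand from another of its gene.

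Named B cell markers lay above the filter on both arrays, though lower on the transgenic one. All 8 named B cell markers above the filter lay below the array-wide median, with a median of -0.43 and summed intensities of 130565 (transgenic) and 201342 (non-transgenic). These 8 ranged from -1.26 to -0.31, and the 249 genes with mean levels over 10000 had a median of -0.07. Among those 249 are Cd22, Cd79a, Cd79b, Ms4a1 and Ptprc. Natural killer cell markers were higher, with 6 of 7 above the array-wide median, a median of 0.71 and sums of 7915 and 4859. Of B cell precursor markers, Dntt, Rag1 and Vpreb1 passed the filter through the transgenic array alone, so that they had to be higher there. The 3 with both values above the filter had a median of 0.43, 2 of them above the array-wide median, and the sums over the list were 2019 and 1294. For T cell markers, with Cd3e under the filter, 0 of the 5 with both values above the filter lay above it, Cd4 passed through the transgenic array alone, and the sums were 1358 and 1465. Myeloid markers had 2 of 7 above it and sums of 18980 and 17701, dendritic cell markers 2 of 3 and sums of 2082 and 1899, with Zbtb46 passing through the transgenic array alone, plasma cell markers 3 of 6 and sums of 49574 and 49945, and erythroid markers 0 of 1 and sums of 149.5 and 196. The sort for cells negative for Thy1 and CD11c would remove most T cells and dendritic cells. What part any of these cell types has in the ratios above was not tested.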

How the data were processed

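The deposited values are linear intensities, 1 per probe set and array, as the authors' processed values; the sources used here do not name their software, background step or scaling. Control probe sets (64) were left out. Of the other 45037, 34945 carry 1 gene symbol in the platform's table, 932 several and 9160 none, and only the first were used. Symbols of 34741 were checked through Entrez identifiers against RefSeq genes of GRCm38.p6, and 0 were renamed. The transgenic array's median was lower (log2 difference -0.16), so both arrays were multiplied by factors of 1.06 and 0.947 to a common median. A floor at the 25th percentile of both arrays together (25.1) was applied before log2. The filter was the pooled median (98.8).

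Members are the genes of the fixed list; members and lists were chosen with earlier results of these data known. Named with values were members 2-fold apart in any probe set, the extremes of each class, members listed as known to bind or modify AIRE, and other chromatin genes 2-fold apart by the representing probe set. The remaining members measured were added after their values were seen. The steps were tested on simulated arrays with known folds, given alike to every probe set of a gene and only to genes well above the filter. That simulation cannot speak for dim genes or for genes whose probe sets disagree. Alternatives covered scaling, filter, floor, fold threshold and probe set rule. No detection calls were used, and precision is limited by the number of arrays. Scripts ran under Python 3.11.15 with matplotlib 3.10.9, statsmodels 0.14.6, pandas 2.3.3 and numpy 2.4.6.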

Additional observations from a re-analysis of the deposited data

How the results depend on the processing

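The reported count of 2 members at least 2-fold higher (4.43% of all genes) became 1 without scaling (2.70%), after quantile normalization (3.50%), after loess (3.59%) and without probe sets named as shared (4.26%), 0 when probe sets were averaged (3.92%) or the one of median ratio was taken (3.47%), and 9 at a 1.5-fold threshold (17.4%). The count of 1 lower member (3.19%) stayed at 1 without scaling (4.76%), after quantile normalization (3.78%) and after loess (3.75%). Under these settings more of all genes were 2-fold lower than higher, unlike in the reported one. The count of lower members became 0 when probe sets were averaged (3.47%), 3 when the one of median ratio was taken (Ehmt2, Ezh1 and Hdac7, 4.84%) and 2 at 1.5-fold (8.42%). For an even number of probe sets the median rule took the lower of the middle 2, which favours lower calls. Ehmt2, Ezh1 and Hdac7 have 2 probe sets each, so their lower one was read. With the 2 averaged they were at -0.62, -0.57 and -0.91, short of 2-fold. The share of all genes moved with the setting too, and counts this small cannot be read apart from it. Under the median rule the sign of 8 of 49 members turned, among them Ezh1 (-1.31), Kdm2a (0.0060), Smarca4 (-0.85), Arid1a (-0.67), Supt16 (-0.54) and Hipk2 (-0.14), since other probe sets were then read. Of these, all but Kdm2a have an even number of probe sets. With the middle 2 averaged, Ezh1 was at -0.57, Smarca4 at -0.37, Arid1a at -0.07 and Supt16 at -0.16. Hipk2 was then at 0.08 and kept its sign. Averaging turned 9. Leaving out the scaling, quantile normalization and loess turned 13 each, and the members they turned had reported ratios of at most 0.17 in size. These are signs against 0, which move when a scaling shifts every ratio together. Read against the array-wide median of each scaling, 24 of 49 members lay above it under all 4 scalings and 23 under none. In all, 20 members changed sign in at least 1 of 11 alternatives, Hipk2 only through the rule for even numbers. Less the array-wide median, all members ran from -0.01 to 0.20 over these alternatives, deacetylases from -0.06 to 0.21, methyltransferases from -0.01 to 0.24, demethylases from -0.10 to 0.13, DNA methylation from -0.10 to 0.30, readers from 0.02 to 0.33, acetyltransferases from 0.26 to 0.52 and remodellers from -0.15 to 0.06. No paired analysis was possible because each group is 1 array.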

Other observations

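By intensity, in bins chosen after seeing the data, the median log2 ratio of all genes above the filter was 0.06 for 2845 genes with mean levels under 300, 0.16 for 3485 genes from 300 to 1000, 0.26 for 3025 genes from 1000 to 3000, 0.27 for 1174 genes from 3000 to 10000 and -0.07 for 249 brighter genes. The 8 members from 300 to 1000 had a median of 0.09, the 28 from 1000 to 3000 a median of 0.20 and the 13 from 3000 to 10000 a median of 0.35. No member lay outside these bounds, so the genes under 300 are in the array-wide median but hold no member. Beside genes of like level, members were lower in each bin from 300 to 3000 and higher from 3000 to 10000. The 15 member probe sets under the filter were left out of every count.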
